A study of Homo sapiens with 10 samples.

Results

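The genes described here were the protein-coding genes whose symbol starts with ZNF and a number and whose mean expression in the GSE1 knockdown experiment was at least 500 normalised counts. They were chosen by this measured level, and 159 of the 511 protein-coding ZNF genes passed, out of 60603 genes listed. RNA came from NB4 cells, an established acute promyelocytic leukaemia line, in 2 experiments. In the first, cells carried the empty lentiviral vector pLKO.1 puro (EV) or the same vector with a short hairpin against GSE1 (shA1 or shB2) and were collected 48 h after transduction. In the second, NB4 cells received 2 µM MC2580, an inhibitor of the histone demethylase LSD1, or its solvent DMSO for 24 h. Each of the 5 conditions had 2 libraries, and all 10 libraries are of 1 cell line.

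The values used are the authors' base means, that is, 1 mean per gene and experiment of counts divided by each library's size factor. In the knockdown experiment the same base mean stands beside both hairpins, so it pools all conditions of that experiment. Values per library were not analysed here, so no spread, n or test can be given for any level, and EV, shA1 and shB2, or DMSO and MC2580, are not compared. The summed base means came to 40543130 in the knockdown experiment and 41201112 in the inhibitor experiment. Shares of these sums are used where the experiments are set side by side. The experiments differ in transduction, time and treatment, and these cannot be told apart. A list of promyelocyte and myeloid markers used for the NB4 line held 8 genes. Of these, MPO, which encodes myeloperoxidase, had the highest base mean of all protein-coding genes in the knockdown experiment, at 506765. CTSG, PRTN3, AZU1, CD33, RARA and PML were all above the cutoff, whereas ELANE, the neutrophil elastase gene, was near 0 in both experiments, at 1.10 and 3.87. Of the genes reported from a list set for other cell types, CD3E, MS4A1, HBB, HBG1, ALB and COL1A1 were at 14.4 or less in both experiments. EPCAM reached 432 and PECAM1 reached 2048 in the knockdown experiment, and the listed genes need not be exclusive to other lineages.

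ZNF genes encode zinc finger proteins. Most hold C2H2 fingers, small folds in which a pair of cysteines and a pair of histidines hold a zinc ion and which, when repeated in tandem, read DNA a few bases at a time. Many also carry a KRAB domain, which recruits the corepressor TRIM28 and through it the histone methyltransferase SETDB1. Others carry a SCAN domain, through which such proteins pair with each other. Genes with a KRAB domain multiplied by local duplication, above all on chromosome 19, and many bind transposable elements. Other proteins with a ZNF symbol do not act as DNA-binding repressors, but work on RNA, ribosomes or chromosome segregation.

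The coding DNA of 1 finger each is shown for the members with the highest base mean among those with a KRAB-like stretch alone, a SCAN-like stretch alone or neither that hold fingers in tandem, and for the member with the most fingers. Each run starts at the first cysteine codon and ends just before the next finger, and capitals mark the 2 cysteine and 2 histidine codons. They are read from the canonical GENCODE 44 transcripts on GRCh38. The ZNF317 finger lies at chr19:9160315-9160398 on the plus strand, in exon 7. The ZNF24 finger lies at chr18:35337499-35337582 on the minus strand, in exon 4. The ZNF655 finger lies at chr7:99572748-99572831 on the plus strand, in exon 3. The ZNF91 finger lies at chr19:23362094-23362177 on the minus strand, in exon 4.
ZNF317: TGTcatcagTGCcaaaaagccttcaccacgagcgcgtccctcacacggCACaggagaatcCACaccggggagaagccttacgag
ZNF24: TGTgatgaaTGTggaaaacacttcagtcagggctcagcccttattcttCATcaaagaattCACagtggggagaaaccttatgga
ZNF655: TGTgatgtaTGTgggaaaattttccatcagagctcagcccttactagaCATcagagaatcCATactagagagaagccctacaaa
ZNF91: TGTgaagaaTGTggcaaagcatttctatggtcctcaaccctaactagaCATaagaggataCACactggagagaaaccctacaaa
The 4 runs are all 84 bases long, and between 59.5% (ZNF317 and ZNF91) and 75% (ZNF655 and ZNF91) of their bases were identical in pairs. Over all 979 member fingers followed by another finger at this distance, the 21 bases after the second histidine codon, which encode the linker, were more alike than the finger's central stretch, the commonest base being held by a median of 79.3% of fingers. In the 36 bases between the second cysteine and the first histidine codon, where the DNA-contacting residues lie, it was held by a median of 56.1%. The fingers of the less expressed ZNF genes had medians of 87.2% and 57.6% for these stretches.

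The 159 members made up 31.1% of the protein-coding ZNF genes, whereas 41.6% of all protein-coding genes reached a base mean of 500. Their base means ran from 501 to 8719 with a median of 1096, and 82 reached 1000, 40 reached 2000 and 5 reached 5000. Their median stood below that of the 8304 protein-coding genes past the same cutoff, 2146. Among all 19975 protein-coding genes, the member with the median base mean, ZNF195, ranked 6273. Together they held 0.605% of all base means in the knockdown experiment and 0.591% in the inhibitor experiment. They also held 82% of the summed base mean of protein-coding ZNF genes in the knockdown experiment, a share that their choice by level there makes high. The first 12 members alone held 24.5% of the members' sum.

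The values that set the cutoff's edge were close together. The 5 members just inside were ZNF551 at 501, ZNF500 at 503, ZNF720 at 532, ZNF184 at 533.1 and ZNF267 at 533.6. The 5 protein-coding ZNF genes just outside were ZNF101 at 499, ZNF614 at 496, ZNF649 at 493, ZNF90 at 486 and ZNF747 at 482. All 5 genes just outside and all of those just inside except ZNF500 encode a KRAB-like stretch.

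**Figure D1:**
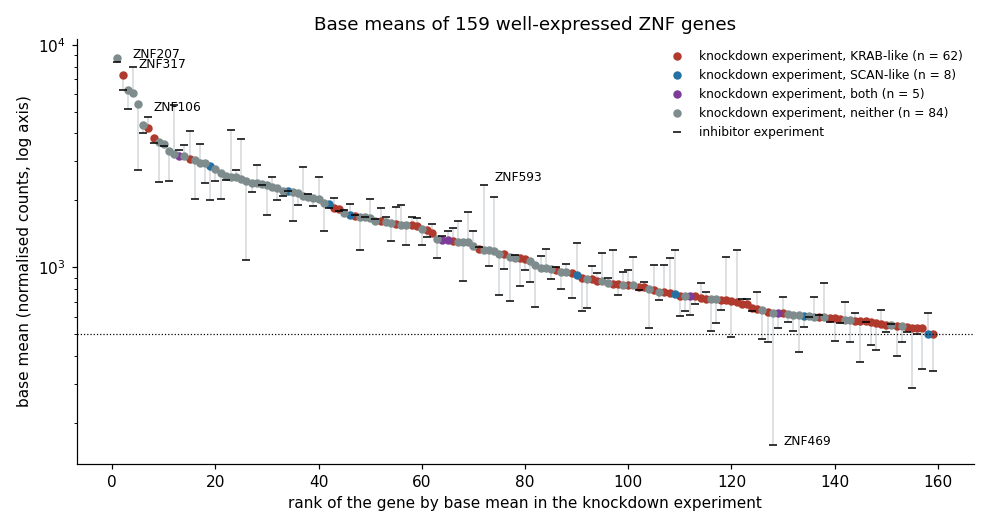
Base mean (normalised counts, log axis) of each of the 159 members, ordered by rank in the knockdown experiment: coloured points give the knockdown experiment by protein class, black dashes the inhibitor experiment, and the dotted line the cutoff of 500. Levels fall from 8719 for ZNF207 to 501, KRAB-like members crowd the lower end, and the lowest dash is ZNF469 at 160 in the inhibitor experiment.

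The highest base means belonged mostly to genes whose proteins held no KRAB-like stretch. ZNF207, which encodes a microtubule and BUB3 binding protein of the spindle checkpoint, led with 8719 in the knockdown and 8363 in the inhibitor experiment. ZNF638, an RNA- and DNA-binding protein that takes part in silencing foreign DNA, had 6256 and 5156. ZNF598, the ubiquitin ligase that marks collided ribosomes, had 6078 and 7959. ZNF106, an RNA-binding protein, had 5423 and 2734. Of the first 12 members, 9 had neither a KRAB-like nor a SCAN-like stretch and 3 were KRAB-like (ZNF317, ZNF282 and ZNF266). Of the first 12, 6 proteins held no C2H2 motif of the usual spacing. ZNF592, ZNF609, ZNF655, ZNF622 and ZNF121 completed the 12, with 4364, 3671, 3583, 3346 and 3238 in the knockdown experiment. Among the lowest 40 members, by contrast, 25 were KRAB-like without a SCAN-like stretch and 12 had neither.

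Per kilobase of all annotated exons, a rough scale for setting genes of different length side by side, the order changed. The members' median was 172 normalised counts per kb in the knockdown experiment, and 392 for all protein-coding genes past the cutoff. ZNF622 and ZNF593, both of which act in the maturation of the large ribosomal subunit, headed the list with 1960 and 1641 per kb. ZNF22 had 1510.1, ZNF317 had 1452, ZNF598 had 1294 and ZNF282 had 1124 per kb in that experiment. ZNF511, ZNF768, ZNF830 and ZNF428 followed with 891, 874, 789 and 767. Of these 10, 8 had neither stretch and 2 were KRAB-like, and 5 held no C2H2 motif of the usual spacing. The order depended on the length used. With the longest transcript in place of all exons, 8 of the 10 stayed among the first 10, but with the median transcript length only 1 did. ZNF511 also shared 44.3% of its transcript's 50-base words with the annotated read-through ZNF511-PRAP1, so that its level is uncertain.

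Proteins were sorted by sequence, which the rule did not use. A KRAB-like stretch, found by similarity to ZNF10, was present in 67 of 159 members (42.1%) and in 258 of 348 less expressed ZNF proteins (74.1%). A SCAN-like stretch, found by similarity to ZNF24, was present in 13 members (8.18%) and in 11 of the others (3.16%). Both were found in 5 members, ZNF445, ZNF202, ZNF274, ZNF75A and ZNF75D, and neither in 84 members (52.8%) against 83 of the others (23.9%). These shares are described and not tested, since genes that arose by duplication are not independent. The counts rest on similarity to ZNF10 and ZNF24, so a more divergent stretch can be missed. KRAB matches too weak to be counted were found in the SCAN-like members ZNF213 (E-value 0.01), ZNF496 (0.034), ZNF394 (0.039) and ZNF263 (0.11). They were also found in ZNF714 (2.4e-05), ZNF212 (0.0001) and ZNF473 (0.13), counted as having neither stretch. Whether these proteins hold a KRAB domain was not tested.

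The KRAB-like share did not drop evenly with level. It was 64.6% of 79 ZNF proteins with a base mean under 10, 79.3% of 92 between 100 and 250 and 76.8% of 95 between 250 and 500. Past the cutoff it was 59.7% of 77 members between 500 and 1000, 38.1% of 42 between 1000 and 2000 and 12.5% of 40 members above. The share on chromosome 19 followed the same course, with 61.1% of genes between 250 and 500, 36.4%, 23.8% and 10% in the 3 member ranges. Per kb of exon, the eighth of ZNF genes with the highest levels held 12 KRAB-like proteins among 64 (18.8%), and the next eighth 29 among 63 (46%). Shared sequence differed with both level and KRAB class. Over 10% of the transcript's 50-base words occurred in another gene for 70 of 258 KRAB-like genes below the cutoff (27.1%), 8 of 67 KRAB-like members (11.9%), 12 genes below the cutoff that are not KRAB-like (13.3%) and 6 of the other members (6.52%). Such sequence can lower or shift the estimated count of a gene, and its part in these shares was not tested.

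**Figure D2:**
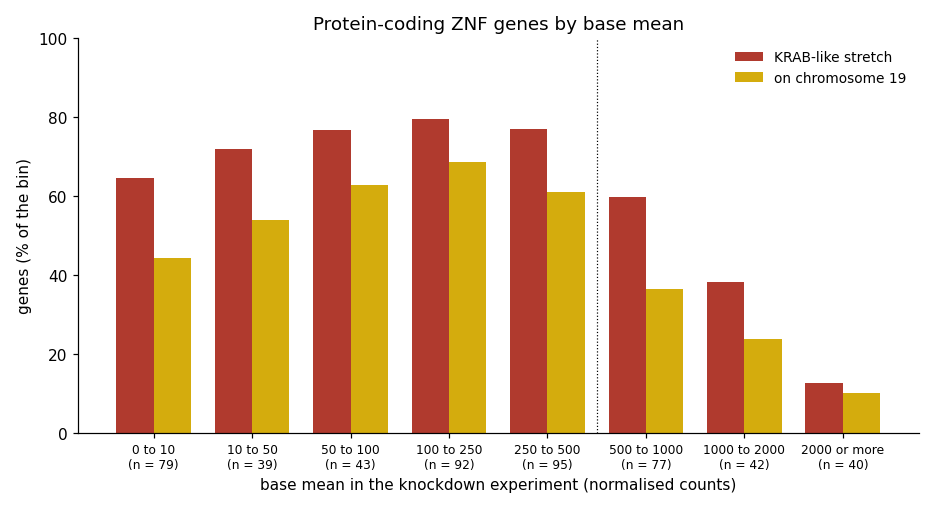
Share of protein-coding ZNF genes (%) that encode a KRAB-like stretch (red) or lie on chromosome 19 (yellow) in 8 ranges of base mean in the knockdown experiment, with the number of genes under each pair of bars and a dotted line at the cutoff. Both shares are highest between 100 and 250, at 79.3% and 68.5%, and lowest at 2000 or more, at 12.5% and 10%.

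Among the 62 members with a KRAB-like stretch alone, the median base mean was 758 in the knockdown experiment, against 1555 for the 84 with neither stretch. The medians per kb were 116 and 286. The KRAB-like member with the highest level was ZNF317, with 7330 in the knockdown and 6276 in the inhibitor experiment. ZNF282, a repressor first found at the long terminal repeat of a human T-cell leukaemia virus, had 4228 and 4766, and ZNF266 had 3799 and 3623. ZNF777 and ZNF316 completed the 5 KRAB-like members with the highest level per kb, at 580 and 400.4 per kb in the knockdown experiment. ZNF91, which represses SVA retrotransposons, had 569 and 448, and ZNF224 had 549.6 and 515. ZNF10, the gene from which the KRAB domain of many repressor tools was taken, fell short of the cutoff at 443 but had 588 in the inhibitor experiment.

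The 13 SCAN-like members ranged from 77.9 to 347 normalised counts per kb in the knockdown experiment. ZNF24 had the highest level per kb among them, followed by ZNF202 at 261, ZNF263 at 260.3, ZNF394 at 223 and ZNF174 at 209.9. ZNF445, which protects imprinted loci together with ZFP57, had the highest base mean of the 13, 3181 in the knockdown and 3364 in the inhibitor experiment. ZNF274, which binds the 3′ ends of ZNF genes and brings SETDB1 there, had 1333 and 1391, and ZNF202 had 1322 and 1462. For ZNF263, a GC-rich sequence binder, 49.1% of 50-base words lay also in another annotated gene, so its level is uncertain.

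The machinery that KRAB domains depend on had a higher median level per kb than KRAB-like members, but its lower genes lay within their range. All 17 genes of a list of TRIM28, SETDB1, HP1, NuRD, HUSH and DNA methylation genes passed the cutoff of 500. Of all protein-coding genes, 41.6% passed it. The median of the 17 was 686 per kb in the knockdown experiment. It was 116 for the 62 members with a KRAB-like stretch alone and 392 for all protein-coding genes past the cutoff. TRIM28 itself had 8766 per kb and SETDB1 403. DNMT1 had 3893 per kb, CBX3 3060 and CHD4 2029, and the lowest was ATF7IP with 160 per kb. ZNF410, known as an activator of CHD4, had a base mean of 2342 in the knockdown and 1715 in the inhibitor experiment, but 84.8% of its 50-base words lay also in another annotated gene.

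Some members join the chromatin complexes of the study's proteins, LSD1 and GSE1. ZNF217 and ZNF516, which bind the LSD1, CoREST and CtBP corepressors, had base means of 2650.2 and 2585 in the knockdown and 2034 and 2460.1 in the inhibitor experiment. In the list of 16 genes of this complex and its zinc finger partners, 14 passed the cutoff, with a median of 423 per kb in the knockdown experiment. ZNF217 stood at 429 per kb and ZNF516 at 295 per kb, beside KDM1A (LSD1) at 417, GSE1 at 222 and GFI1 at 1304. The exceptions were RCOR2 and GFI1B, with base means of 345 and 284. These levels pool cells with and without the GSE1 hairpins. ZNF592 and ZNF687, which act with ZMYND8, had 533 and 256 per kb, beside 819 for ZMYND8. ZNF644, a partner of WIZ and of the H3K9 methyltransferases EHMT1 and EHMT2, had 204, and these partners had 269.8, 183 and 655. ZNF462 was the 1 gene of these 8 that did not pass, at a base mean of 0.116 in the knockdown and 5.44 in the inhibitor experiment.

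Sequence-specific DNA-binding factors without a KRAB-like or SCAN-like stretch lay across the range. ZNF384 had a base mean of 2949 in the knockdown and 2401 in the inhibitor experiment. ZNF335, an activator with a role in neural progenitors, had 2057 and 1889. ZNF148 and ZNF281, related proteins that bind GC-rich promoters, had 1148 and 1072 in the knockdown experiment and 754 and 864 in the inhibitor experiment. ZNF143, which binds many promoters and snRNA genes, had 723 and 516, and its close relative ZNF76 had 1693 and 1679. Neither ZNF143 nor ZNF76 matched the usual finger spacing, but with wider spacing between cysteines or histidines each held 7 motifs.

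Members held a median of 8 C2H2 motifs (C, 2 residues, C, 12 residues, H, 3 residues, H), against 11 in the less expressed ZNF proteins. ZNF91 held the most, 31, followed by ZNF646 with 28 and ZNF236 with 26. No such motif was found in 25 members (15.7%), against 15 of the other 348 (4.31%). Of these 25, 5 had none even with wider spacing, namely ZNF330, ZNF503, ZNF839, ZNF862 and ZNF720, the last 2 of which are KRAB-like. Neighbouring motifs began exactly 28 residues apart in 979 of 1176 cases in members (83.2%) and 3188 of 3424 in the others (93.1%). Across members, level per kb was lower where fingers were more numerous, with a Spearman rho of -0.39 over 159 genes. This is a description across genes, whose exon length enters the level and whose class goes with their finger number, the median being 12 in the KRAB-like and 4 in the members with neither stretch.

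**Figure D3:**
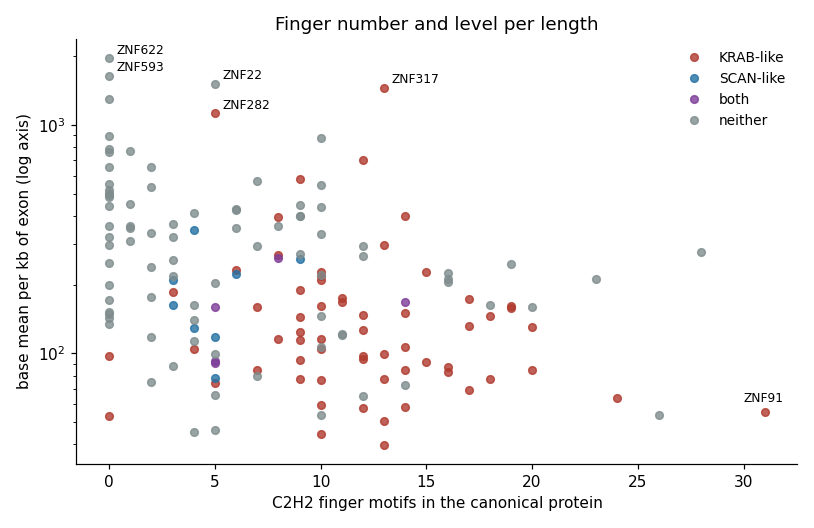
Base mean per kb of exon in the knockdown experiment (log axis) against the number of C2H2 finger motifs in the canonical protein, 1 point per member, coloured by class. Proteins without a motif of the usual spacing include ZNF622 at 1960 per kb, whereas ZNF91 with 31 motifs stands at 55.2 per kb.

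Members were less concentrated on chromosome 19 than other ZNF genes. It held 42 members (26.4%), 26 of them KRAB-like, and 205 of the 351 placed genes below the cutoff (58.4%). Chromosome 7 held 20 members and 13 of the others, chromosome 16 held 19 and 12, and chromosome 12 held 10 and 3. No placed ZNF gene, member or not, lay on chromosome 13, 21 or Y. When all placed ZNF genes were joined into clusters with gaps of up to 500 kb, regardless of level, 58 of 127 genes that stood alone were members (45.7%), 49 of 136 in clusters of 2 to 9 genes (36%) and 52 of 247 in clusters of 10 or more (21.1%).

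Clusters differed in how many of their genes were members. At chr7:149069641-149867479, 8 of 10 ZNF genes were members, with ZNF282 the highest. At chr19:8509678-9793180, 8 of 14 were members, ZNF317 and ZNF266 among them, and the median base mean of the 14 was 1043. At chr16:30378106-31917357, 8 of 14 were members and ZNF646 was the highest at 2397. At chr12:132918306-133214832, 5 of 7 genes passed, all of them KRAB-like. By contrast, 3 of 36 passed at chr19:19668796-24129968, the cluster of ZNF91, with a median of 189, and 2 of 27 passed at chr19:36182276-37817300. In the biggest cluster, at chr19:57191500-58481230, 5 of 42 passed, with ZNF274 the highest.

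Promoters were read from RefSeq (GRCh38.p14) as the 250 bases before to 50 after the first listed start, and 139 of the 159 members matched by symbol. GC content had a median of 64.3% in members, 59.7% in 289 ZNF genes below the cutoff and 65.7% in 6902 protein-coding genes past it. Altogether 4 short words were searched on both strands, none of which contains another. CCGGAAG, the core bound by ETS factors, was present in 41% of member promoters, 39.8% of the other ZNF promoters, 22.8% of protein-coding promoters past the cutoff and 14.4% of all protein-coding promoters. CCAAT was present in 38.8% of member promoters and 53.6% of the other ZNF promoters, against 37.4% of protein-coding promoters past the cutoff and 36.6% of all protein-coding promoters. GGGCGG, the core bound by SP1, was present in 64.7% of member promoters, 64% of the other ZNF promoters, 72.7% of protein-coding promoters past the cutoff and 59.2% of all protein-coding promoters. AAGATGGC, bound by YY1, was present in 4.32%, 4.84%, 6.82% and 3.97% of the same 4 groups. Among members, CCGGAAG was present in 48.3% of 58 KRAB-like genes and 35.8% of 81 others. A match is only a run of letters in this window and does not show binding.

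The members stood in nearly the same order in both experiments. Across the 159 genes, Pearson's r of the log2 base means was 0.93 and Spearman's rho was 0.93. The points share the cell line and each gene's length and sequence, and no p is given. As a share of all base means, the inhibitor experiment over the knockdown experiment had a median log2 ratio of -0.07 over members, from -1.99 to 0.94, with 70 members above 0 and 89 below. The median over the 8304 protein-coding genes past the cutoff was -0.11. A ratio more than 0.5 in size was seen for 28 members (17.6%) and 23.7% of those protein-coding genes, and more than 1 for 3 members (1.89%) and 3.17%. In the inhibitor experiment 144 members again reached 500 and 15 did not. These 15 had base means of 501 to 707 in the knockdown experiment, and 10 of them were KRAB-like. Of all 77 members between 500 and 1000 in the knockdown experiment, 59.7% were KRAB-like, a similar share. Among ZNF genes below the cutoff, 14 reached 500 in the inhibitor experiment. The highest of these 14 in the inhibitor experiment was ZNF397, with 422 and 766.

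The members farthest apart in share were ZNF469 at the low side and ZNF593 at the high side. ZNF469, mutated in brittle cornea syndrome, had a base mean of 626 in the knockdown and 160 in the inhibitor experiment, a log2 ratio of shares of -1.99. ZNF385A, a p53 cofactor, had 2436 and 1079 (-1.20), ZNF106 had 5423 and 2734 (-1.01), ZNF267 had 534 and 287 (-0.92), and ZNF473, which acts in histone mRNA processing, had 1120 and 709 (-0.68). ZNF593 had 1201 and 2337, a log2 ratio of 0.94. ZNF428 had 1191 and 2074 (0.78), ZNF783 had 702 and 1195 (0.75), ZNF121 had 3238 and 5368 (0.71), and ZNF692 had 2561 and 4135 (0.67). The other ribosome maturation gene, ZNF622, stood the other way, with 3346 and 2440.2, a log2 ratio of -0.48. With 1 value per experiment, none of these differences can be set against a spread, and transduction, time and treatment cannot be told apart in them. Among the myeloid markers, log2 ratios were 1.30 for AZU1, 0.77 for PRTN3, 0.68 for MPO, 0.66 for CTSG and 0.20 for RARA. They were -0.09 for CD33 and -0.06 for PML, and ELANE, near 0 in both experiments, had 1.79. From the list for other cell types, PECAM1 had -1.60 and EPCAM -0.12.

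**Figure D4:**
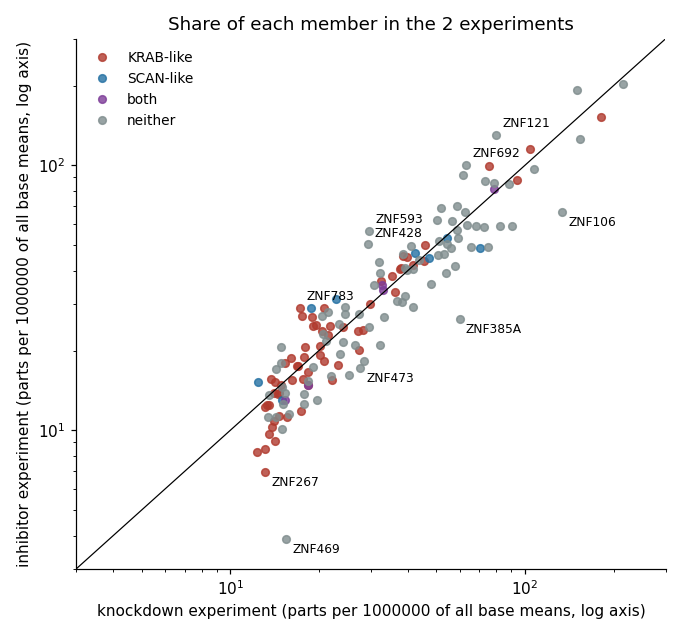
Share of each of the 159 members in the knockdown experiment (x axis) and the inhibitor experiment (y axis), each in parts per 1000000 of all base means of that experiment on log axes, coloured by class, with the line of equal shares. Most points lie near the line, and the 5 lowest and 5 highest ratios are named, from ZNF469 at 15.5 and 3.88 parts to ZNF593 at 29.6 and 56.7.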

How the data were processed

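Total RNA of NB4 cells was sequenced as mRNA-seq libraries by the authors, 2 per condition. What the authors deposited as signal is 1 base mean per gene and experiment, the average of normalised counts over its libraries. The submitters' processing notes name bcl2fastq 2, FastQC 0.11.5, STAR 2.7, RSEM, DESeq2 and hg38, and the annotation release is not given in the sources used here. The deposited tables also hold the authors' fold changes, errors and p-values for each comparison, which were not used. Per-library counts were not analysed here, so depth per library, replicate spread and tests are absent. The experiments were normalised separately.

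Members and gene lists were chosen with earlier results of these data known. Lengths, canonical coding sequences and coordinates came from GENCODE 44 (GRCh38), and all 159 members matched. KRAB-like and SCAN-like stretches were found with phmmer (HMMER 3.4, E-value at most 1e-05) from ZNF10 residues 1 to 90 and ZNF24 residues 30 to 140. Finger counting and share ratios were tested on simulated data. Named were the 12 highest members by base mean, the 10 highest per kb, 5 on each side of the cutoff, 5 with the highest and lowest ratio of shares, 5 per domain class, those with the most and fewest fingers, fixed lists and genes of known role. ZNF646, ZNF236, ZNF397, ZNF410 and ZNF76 were named after their values were seen, and ZNF224 was named outside these rules. One marker of another lineage is not reported here. Alternatives changed the cutoff, scaling, length, finger spacing and E-value.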

Additional observations from a re-analysis of the deposited data

How the results depend on the processing

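Of 19 alternatives, 10 kept the value within the limit set for it (1.5 times for counts and medians of levels, 0.1 for a log2 ratio, the 95% Clopper-Pearson interval for a percentage). That interval treats genes as independent, which duplicated genes are not, so it served only as a set width and not as a test. With a cutoff of 250, 254 genes passed with a median base mean of 628, of which 39.4% lay on chromosome 19 and 55.1% were KRAB-like. With a cutoff of 1000, 82 passed with a median of 1932, of which 17.1% lay on chromosome 19 and 25.6% were KRAB-like. The shares therefore follow the cutoff. Dividing by the median transcript length raised the members' median level from 172 to 695 per kb, and by the longest transcript to 229. A cutoff of 500 in the inhibitor experiment gave 158 genes, and a cutoff per kb that as many protein-coding genes pass gave 153, of which 128 were also members. The median log2 ratio of shares changed sign from -0.07 to 0.02 when scaled to the median of protein-coding genes. KRAB-like shares of members were 43.4% at an E-value of 0.001 and 38.4% at 1e-10. Those of the less expressed ZNF proteins were 75.6% and 55.2%, so the gap was narrower at 1e-10. No paired analysis was possible because the values used are 1 mean per experiment, and for the same reason leaving out a replicate and count models were not run. The depth of single libraries is unknown.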

Other observations

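Some ZNF genes named for a known role stood below the cutoff in NB4 cells. ZNF521, a regulator of blood stem and progenitor cells, had a base mean of 1.45 in the knockdown experiment and was listed at 0 in the inhibitor experiment. ZNF423, its close relative, had 8.61 and 8.59. ZNF683, a factor of resident memory T cells, had 3.39 and 4.36, and ZNF703, an oncogene of breast cancer, had 122 and 71.6. Of the 511 protein-coding ZNF genes, 21 were listed at 0 in the knockdown experiment and 81 had a base mean under 10.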
